A study of Mus musculus with 6 samples.

Results

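The troponin genes were taken as every row of the deposited expression table whose symbol is Tnni1, Tnni2, Tnni3, Tnnt1, Tnnt2, Tnnt3, Tnnc1 or Tnnc2, which gave 8 of 24421 genes. They were measured by poly(A) RNA sequencing of whole mouse hearts at E18.5, shortly before birth, in 3 libraries labelled Gas2l3 -/- and 3 labelled wildtype, all on the C57/Bl6 strain. The product of Gas2l3 links actin to microtubules, and per the series title its deletion was studied for cytokinesis in heart muscle cells. The labels name no promoter, Cre or deleted exon. Nor is it stated that the samples are different embryos, and every p-value therefore reflects only how far these 6 samples scatter. Libraries labelled Gas2l3 -/- are called KO-labelled below.

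Troponin is the calcium switch of the muscle thin filament and is built of 3 subunits. Troponin C binds calcium, troponin I holds actin and myosin apart until calcium arrives, and troponin T ties the complex to tropomyosin. Each subunit has isoforms encoded by separate genes, and the heart exchanges some of them as it matures. The fetal heart makes the slow skeletal troponin I gene Tnni1 together with the cardiac gene Tnni3, and in the mouse Tnni1 is silenced after birth until Tnni3 stands alone. The cardiac protein carries an N-terminal extension that protein kinase A phosphorylates under adrenergic drive, which the Tnni1 product lacks.

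The sequences before the starts of 4 genes are printed because these genes make up nearly all troponin mRNA in these hearts and include both partners of the troponin I switch. Each is 250 bases, 5' to 3' on the gene's own strand, ending at the base before the RefSeq start on GRCm38.p6. Capitals mark a match on either strand to one of 2 short motifs. The first is GATAA, which GATA factors recognise. The second is CATTCC, the core of the muscle element that TEAD factors bind, known as M-CAT. Tnni1 is on the plus strand at chr1:135799171-135799420, before the first of its 2 RefSeq starts, which is also a GENCODE transcript start. That start lies 19987 bases inside the gene as GENCODE annotates it, so the window is not the sequence before the outermost start. Tnni3 is on the minus strand at chr7:4522529-4522778, before a start shared with GENCODE that lies 1701 bases inside the annotated gene. Tnnt2 is on the plus strand at chr1:135836084-135836333, also before the first of 2 starts, 20 bases upstream of the GENCODE gene. Tnnc1 is on the plus strand at chr14:31208062-31208311, directly before the annotated gene.
Tnni1: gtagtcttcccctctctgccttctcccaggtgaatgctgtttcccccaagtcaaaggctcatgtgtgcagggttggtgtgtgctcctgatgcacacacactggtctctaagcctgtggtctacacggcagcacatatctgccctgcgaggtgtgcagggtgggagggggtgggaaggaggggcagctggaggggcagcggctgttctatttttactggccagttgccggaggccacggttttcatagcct
Tnni3: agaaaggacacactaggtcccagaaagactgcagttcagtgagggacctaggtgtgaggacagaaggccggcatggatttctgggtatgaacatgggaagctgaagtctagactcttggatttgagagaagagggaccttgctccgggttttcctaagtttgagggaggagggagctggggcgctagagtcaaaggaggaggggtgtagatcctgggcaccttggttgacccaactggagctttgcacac
Tnnt2: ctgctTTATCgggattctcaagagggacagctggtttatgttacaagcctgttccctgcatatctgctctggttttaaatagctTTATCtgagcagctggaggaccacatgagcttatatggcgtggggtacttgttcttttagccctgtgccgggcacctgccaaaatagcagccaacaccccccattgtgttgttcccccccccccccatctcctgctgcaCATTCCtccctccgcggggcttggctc
Tnnc1: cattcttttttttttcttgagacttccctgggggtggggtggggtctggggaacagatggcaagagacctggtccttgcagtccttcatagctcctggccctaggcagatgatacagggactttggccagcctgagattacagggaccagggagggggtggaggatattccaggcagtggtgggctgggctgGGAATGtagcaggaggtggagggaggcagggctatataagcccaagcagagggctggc
Tnnt2 held GATAA at 245 and at 166 bases before its start, both read on the opposite strand, and CATTCC at 27 bases before it. Tnnc1 held CATTCC at 58 bases before its start, also on the opposite strand. Neither motif lay in the Tnni1 or Tnni3 window. Of 32851 mouse promoters of the same length, 22.6% held GATAA and 12.6% held CATTCC. The TATA box was searched only as the letters TATAAA, which 12.4% of promoters held. These letters lay in none of these 4 windows and at 30 bases before the start of Tnnt1. The Tnnc1 window holds the similar letters tatataag near its end, which this search does not count, so a TATA box there is not excluded. No MEF2 box (2.92% of promoters) or CArG box (1.47%) was found in any of the 6 troponin genes with a RefSeq promoter here, while each held at least 1 E-box (CANNTG, 66.2% of promoters). These are letter matches, not measured binding, and a missing match says only that the letters are not in the window.

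Recovered depth was 3414257 to 7732674 reads per library. Gas2l3 stood at 4.03, 2.99 and 3.06 FPKM across the KO-labelled hearts, against 10.3, 4.12 and 2.48 FPKM across the wildtype-labelled ones (replicates 1 to 3 in order). The gene therefore does not separate the labels, and wildtype-labelled replicate 3 was below every KO-labelled library. The same library had the lowest mean correlation with the others (0.899, against 0.935 to 0.957), and its deviations from the gene means correlated with GC content at 0.702 across genes, which are not independent replicates. Its summed FPKM was the highest, at 788996, against 429622 to 630522 in the other libraries. The part of this library in the results below was not tested, and values without it are given beside the main ones. Against the heart label, all 13 cardiomyocyte markers passed the expression minimum, and their summed level was 31356 to 36253 FPKM in KO-labelled and 34177 to 67794 FPKM in wildtype-labelled libraries.

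Levels in FPKM, which are divided by gene length, ordered the family. GC and length trends differed between the libraries, so the order between genes is approximate. Averaged over 6 libraries, Tnnt2 ranked 4 among all genes in the table, Tnnc1 5, Tnni3 11 and Tnni1 12. Tnnt1 ranked 1463, Tnni2 5696, Tnnt3 11160 and Tnnc2 12441. Within this order Tnni3 and Tnni1 did not differ beyond their spread over the libraries, nor did Tnnt2 and Tnnc1, whose ranges overlapped. Cardiac Tnnt2 made up 98.8% to 99.3% of troponin T FPKM, and Tnnc1 at least 99.9% of troponin C FPKM. Troponin I was the one subunit with 2 abundant isoforms.

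**Figure D1:**
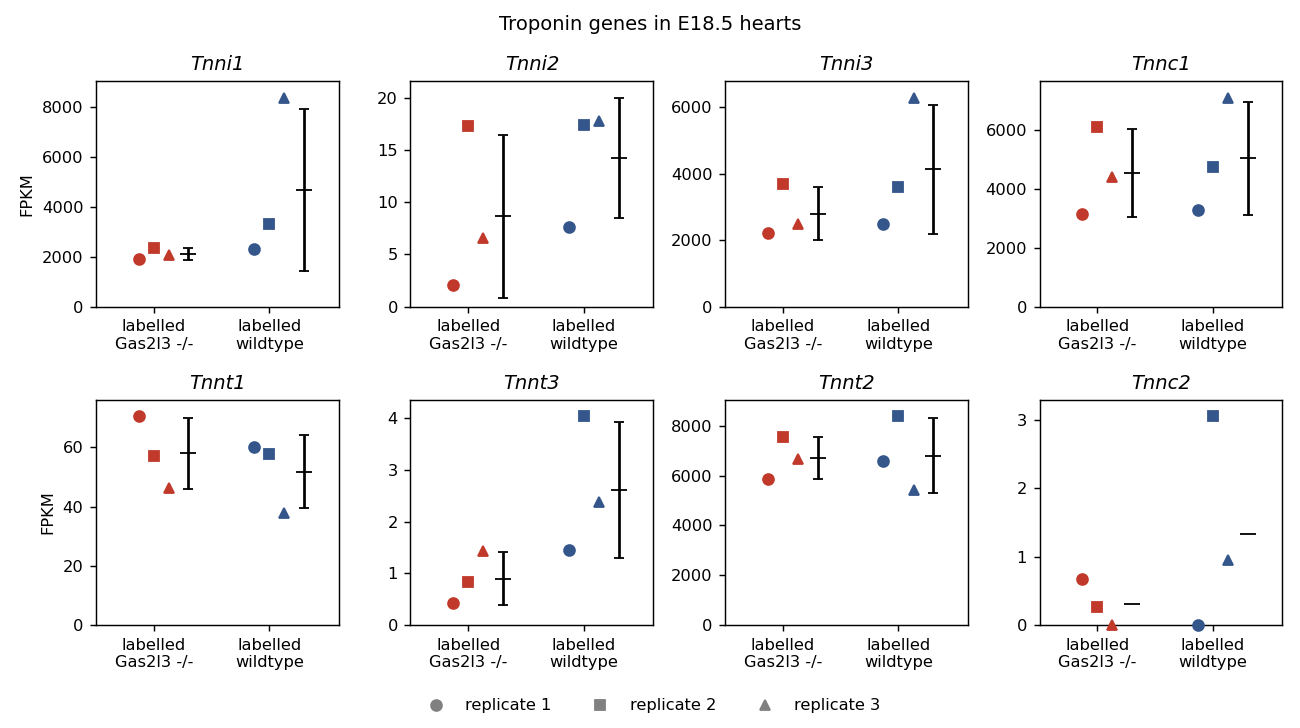
FPKM of each troponin gene (y axis, a separate scale for each gene, starting at 0) in the 3 libraries labelled Gas2l3 -/- (red, left) and the 3 labelled wildtype (blue, right); shapes are replicate numbers and the black marks are the mean ± SD, or the mean alone for Tnnc2. The triangle of wildtype-labelled replicate 3 stands far above the rest for Tnni1, at 8390.0 FPKM, and only Tnnt3 has groups that do not overlap.

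Of the 8 troponin genes, 7 passed the minimum (1 FPKM in 3 or more libraries) and entered limma on log2(FPKM + 0.5), adjusted over 12121 genes. The mean was lower in KO-labelled hearts for 6 of the 7, where 51.0% of all tested genes had a lower mean. None passed an adjusted p of 0.05, which 0.0% of all genes did. At an unadjusted p under 0.05 there was 1 troponin gene, Tnnt3, and 3.25% of all genes (1.35% with a lower mean). FPKM did not overlap between the groups for that same gene alone, where 9.76% of all tested genes did not overlap in either direction. Tnnt3 met the minimum only through the wildtype-labelled libraries, where it was high, so its part in these counts is no support for a lower level. The median log2 fold change of the 7 was -0.50, beside -0.0089 over all tested genes. The median was -0.16 with wildtype-labelled replicate 3 left out and -0.81 with wildtype-labelled replicate 1 left out. The first of these fits also had 6 of 7 means lower, but not the same 6, since Tnnt1 turned to -0.043 and Tnnc1 to 0.15. At a common FPKM total Tnnt1, Tnnt2 and Tnnc1 were all higher (0.34, 0.17 and 0.048), beside a median of 0.15 over all genes. With GC and length trends removed the same genes were also higher (0.34, 0.0082 and 0.066). Only Tnni1, Tnni2, Tnni3 and Tnnt3 stayed lower in both of these settings. In whole hearts, fewer heart muscle cells and less troponin RNA per cell cannot be told apart.

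Tnni1 (chromosome 1, 135779434 to 135810989, plus strand, mm10), the fetal troponin I, was at 1894, 2350 and 2058 FPKM in KO-labelled replicates 1, 2 and 3. It was at 2312, 3331 and 8390.0 FPKM in the wildtype-labelled replicates. The KO-labelled hearts were tightly grouped while the wildtype-labelled hearts spread 3.63-fold, and the groups overlapped by a single pair of libraries. The means were 2101 ± 231 FPKM in KO-labelled and 4677 ± 3255 FPKM in wildtype-labelled libraries (SD, n = 3 each). In limma this was a log2 fold change of -0.94 with an SE of 0.58 (adjusted p = 0.966). Leaving out wildtype-labelled replicate 3 gave -0.41, and a common FPKM total gave -0.76. By replicate number the KO-labelled library was lower in 3 of 3 pairs. With trends on GC content and gene length removed from each library, Tnni1 was at 11.08, 10.86 and 11.03 on the log2 scale in KO-labelled hearts, against 11.41, 11.53 and 13.09 in wildtype-labelled hearts. The groups then did not overlap, as in 8.51% of all genes in that direction, at -1.02 (SE 0.44, unadjusted p = 0.0479, adjusted p = 0.637, limma).

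Tnni3 (chromosome 7, 4518305 to 4524229, minus strand), the cardiac troponin I that remains in the adult, was at 2199, 3701 and 2478 FPKM in the KO-labelled replicates, against 2498, 3610.0 and 6286 FPKM in the wildtype-labelled ones. The groups overlapped, with KO-labelled replicate 2 above 2 of the 3 wildtype-labelled libraries. Means were 2793 ± 799 FPKM in KO-labelled and 4131 ± 1947 FPKM in wildtype-labelled libraries (SD, n = 3 each). The limma estimate was -0.50 on the log2 scale (SE 0.53, adjusted p = 0.966). The estimate was -0.14 without wildtype-labelled replicate 3 and -0.81 without wildtype-labelled replicate 1. With GC and length trends removed, Tnni3 was at 11.58, 11.53 and 11.51 on the log2 scale in KO-labelled hearts, against 11.93, 11.61 and 11.79 in wildtype-labelled hearts. These groups did not overlap either, at a difference of -0.24 (SE 0.23, adjusted p = 0.785, limma). Tnni3 shares 86 of its 2063 annotated exon bases with Dnaaf3 on the same strand, a gene at 0.354 to 1.38 FPKM.

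The ratio of fetal Tnni1 to adult Tnni3 asks how far the troponin I exchange had gone in each heart, and does not depend on scaling between libraries. The ratio of FPKM was 0.861, 0.635 and 0.830 in KO-labelled replicates 1, 2 and 3, against 0.925, 0.923 and 1.33 in the wildtype-labelled replicates. Every KO-labelled heart lay below every wildtype-labelled heart. Expressed as a share, Tnni1 was 46.3%, 38.7% and 45.3% of troponin I FPKM in KO-labelled hearts, against 48.0%, 47.9% and 57.1% in wildtype-labelled hearts. Mean ratios were 0.776 ± 0.123 in KO-labelled and 1.06 ± 0.237 in wildtype-labelled hearts (SD, n = 3 each). The difference of mean log2 ratios was -0.44, or 0.736-fold. The exact two-sided permutation test gave p = 0.1, the smallest that 3 against 3 can give, so this design could not reach 0.05. Taken as pairs of the same replicate number, 3 of 3 were lower (exact sign-flip p = 0.25, the smallest possible).

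Leaving out wildtype-labelled replicate 3 cannot bring separated groups into overlap, so it is no test of the separation. The difference was smaller without that library, at -0.27 (exact permutation p = 0.3). The separation did not hold once trends on GC content and gene length were removed from each library. Tnni1 and Tnni3 differ in GC content, 48.7% and 55.8%. With trends removed the ratio was 0.706, 0.632 and 0.720 in KO-labelled hearts and 0.695, 0.942 and 2.47 in wildtype-labelled hearts. Wildtype-labelled replicate 1 then lay among the KO-labelled hearts, the difference was -0.78 (exact permutation p = 0.3), and 2 of 3 pairs were lower. As a background, 9.63% of 11985 other genes had a ratio to Tnni3 whose groups did not overlap in either direction, and 0.451% had one lower in KO-labelled hearts. The ratio of Tnni1 to each of the same genes was lower without overlap in 38.9% of them.

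**Figure D2:**
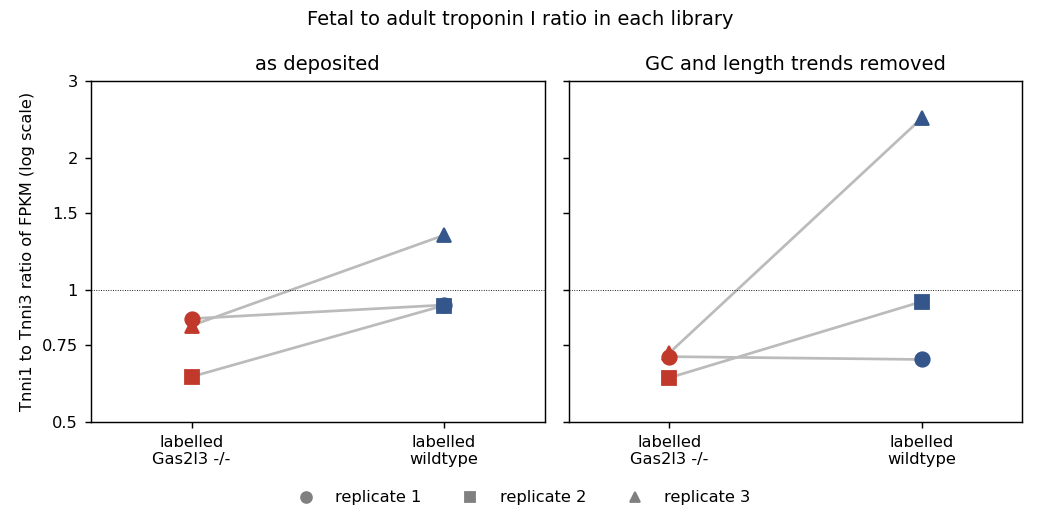
Ratio of Tnni1 to Tnni3 FPKM (log-scaled y axis) in each library labelled Gas2l3 -/- (red, left) and wildtype (blue, right), with lines joining the same replicate number. As deposited (left panel) the KO-labelled hearts lie at 0.635 to 0.861, below all wildtype-labelled hearts, and with GC and length trends removed (right panel) wildtype-labelled replicate 1 falls to 0.695, among them.

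Tnnt2 (chromosome 1, 135836354 to 135852260, plus strand), the cardiac troponin T, was at 5876, 7554 and 6664 FPKM in the KO-labelled replicates, against 6599.5, 8380.4 and 5404 FPKM in the wildtype-labelled ones. The KO-labelled range lay inside the wildtype-labelled range. Wildtype-labelled replicate 3, the highest library for Tnni1, Tnni3 and Tnnc1, was the lowest for Tnnt2. Limma put the log2 fold change at -0.0050 (SE 0.52, adjusted p = 0.9999), and its sign turned with the scaling (0.17 at a common total, 0.38 after quantile normalization). Tnnt1 (chromosome 7, 4504570 to 4516382, minus strand), the slow skeletal troponin T, was at 70.6, 57.0 and 46.4 FPKM in KO-labelled hearts and at 60.2, 57.7 and 37.8 FPKM in wildtype-labelled hearts. For Tnnt1 limma gave 0.17 on the log2 scale (SE 0.31, adjusted p = 0.966), or -0.043 when wildtype-labelled replicate 3 was left out. The ratio of Tnnt1 to Tnnt2, a second index of isoform use, was 0.0120, 0.00755 and 0.00697 in KO-labelled hearts and 0.00911, 0.00688 and 0.00700 in wildtype-labelled hearts. The difference of mean log2 ratios was 0.17 (exact permutation p = 0.6), and it was -0.068 without KO-labelled replicate 1.

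Tnnc1 (chromosome 14, 31208312 to 31211729, plus strand) encodes the troponin C shared by heart and slow muscle. It was at 3124, 6096 and 4395 FPKM in the KO-labelled replicates, against 3278, 4741 and 7079 FPKM in the wildtype-labelled ones. The groups overlapped widely, at 4538 ± 1491 FPKM in KO-labelled and 5032 ± 1917 FPKM in wildtype-labelled libraries (SD, n = 3 each). Its limma log2 fold change of -0.13 (SE 0.55, adjusted p = 0.983) turned to 0.048 at a common total, to 0.11 without KO-labelled replicate 1 and to 0.15 without wildtype-labelled replicate 3.

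The fast skeletal isoforms were scarce. Tnni2 (chromosome 7, 142441808 to 142444410) was at 2.10, 17.4 and 6.55 FPKM in KO-labelled hearts and at 7.64, 17.4 and 17.8 FPKM in wildtype-labelled hearts, resting on 9 to 88 reads. Both replicates 2 stood at 17.4 FPKM, the groups overlapped, and limma estimated -1.01 on the log2 scale (SE 0.65, adjusted p = 0.966), or -0.31 without KO-labelled replicate 1 and -1.70 without KO-labelled replicate 2. Tnnt3 (chromosome 7, 142498836 to 142516009), the fast skeletal troponin T, was at 0.420, 0.839 and 1.44 FPKM in KO-labelled hearts, against 1.45, 4.04 and 2.37 FPKM in wildtype-labelled hearts. Its highest KO-labelled value and lowest wildtype-labelled value nearly touch, and they rest on 11 and 6 reads. Tnnt3 met the minimum of 1 FPKM only through the wildtype-labelled libraries, since KO-labelled replicates 1 and 2 were below it. Its place among the tested genes was thus set by the group where it was high. The log2 fold change of -1.14 (SE 0.41) had an unadjusted p of 0.0225 and an adjusted p of 0.966 in limma. It lay between -1.43 and -0.82 with 1 library left out. With GC and length trends removed its groups overlapped. Tnnc2 (chromosome 2, 164777161 to 164779967), the fast troponin C, had 0 to 16 reads per library and was not tested. It stood at 0.674, 0.270 and 0 FPKM in KO-labelled hearts and at 0, 3.06 and 0.954 FPKM in wildtype-labelled hearts, where a count of 0 (floor of 3 reads) allows up to 0.631 FPKM in KO-labelled replicate 3 and up to 1.16 FPKM in wildtype-labelled replicate 1. The log2 ratio of Tnnc2 to Tnnc1, with 0.5 added to each, differed by -0.71 (exact permutation p = 0.5). Of its 800 exon bases 592 are shared with Ube2c on the opposite strand, and no source used here says whether counting used strand.

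Skeletal muscle markers were measured beside these isoforms. Of 21, 4 were tested (1 lower and 3 higher mean in KO-labelled hearts, median log2 fold change 0.41), Myh4, Myod1, Myf5 and Pax7 were listed at 0 in every library, and Myog did not exceed 0.266 FPKM. The summed level was 118 to 244 FPKM in KO-labelled and 100.3 to 222 FPKM in wildtype-labelled libraries. Mylpf, the fast regulatory light chain, was at 24.3, 7.42 and 5.21 FPKM in KO-labelled hearts and at 37.7, 20.7 and 10.9 FPKM in wildtype-labelled hearts. Mybpc2, fast myosin-binding protein C, was at 5.64 ± 0.570 FPKM in KO-labelled and 3.79 ± 0.772 FPKM in wildtype-labelled hearts (SD, n = 3 each).

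**Figure D3:**
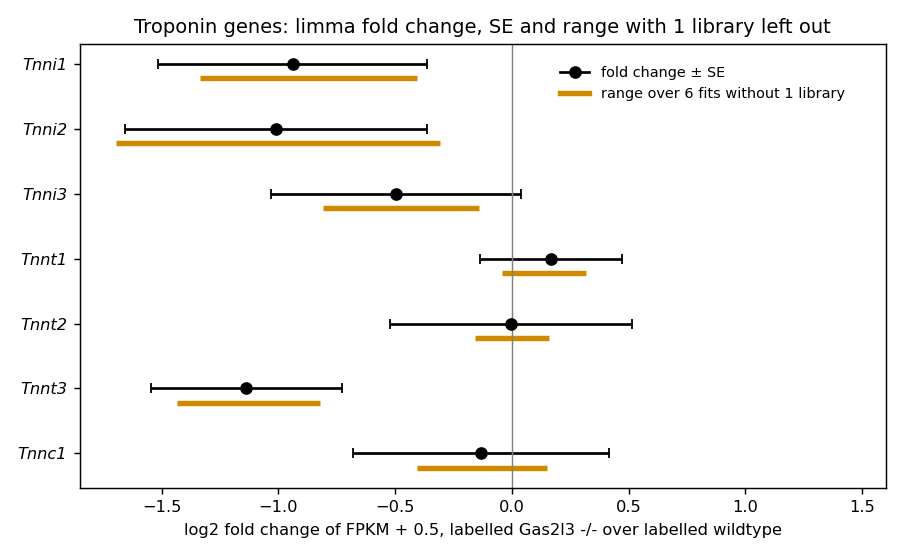
Log2 fold change of FPKM + 0.5 (x axis, positive when higher in libraries labelled Gas2l3 -/-) of the 7 tested troponin genes, with the limma SE (black bar) and the range over 6 fits that each leave out 1 library (orange). Ranges of Tnni1, Tnni2, Tnni3 and Tnnt3 stay below 0, while those of Tnnt1, Tnnt2 and Tnnc1 cross it.

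The proportion of subunits was compared because troponin assembles from 1 of each. Troponin I over troponin C, as summed FPKM, was 1.31, 0.996 and 1.03 in KO-labelled hearts, against 1.47, 1.47 and 2.08 in wildtype-labelled hearts. All KO-labelled hearts were lower. Both isoforms contributed: Tnni1 over Tnnc1 was 0.606, 0.386 and 0.468 in KO-labelled and 0.705, 0.703 and 1.19 in wildtype-labelled hearts. Tnni3 over Tnnc1 was 0.704, 0.607 and 0.564 in KO-labelled and 0.762, 0.762 and 0.888 in wildtype-labelled hearts. Tnni1 over Tnnt2 was 0.322, 0.311 and 0.309 in KO-labelled hearts, against 0.350, 0.397 and 1.55 in wildtype-labelled hearts. Of 11 ratios between single genes, the last 3, the Tnni1 to Tnni3 ratio and that of Tnnt3 to Tnnt2 were lower without overlap, and none higher. Leaving out wildtype-labelled replicate 3 cannot undo these 5 separations, and no further ratio separated without it. Tnnt3 met the minimum only through the wildtype-labelled libraries and rests on 3 to 34 reads, so its ratio is no support for a lower level. The 5 ratios are not independent, since 3 of the 5 have Tnni1 above the line. Tnni1 was lower without overlap over 38.9% of other genes. Of other genes, 1.87% were lower without overlap over Tnnc1 and 1.95% over Tnnt2. Except for the troponin I, Tnnt1 and Tnnc2 indices, these ratios were chosen after the values were seen and were not tested. Troponin C over troponin T was 0.525, 0.801 and 0.655 in KO-labelled and 0.492, 0.562 and 1.30 in wildtype-labelled hearts, which overlapped. The ratio of Myh7 to Myh6, the fetal to adult myosin exchange of the mouse ventricle, was 3.08, 1.88 and 1.94 in KO-labelled and 2.46, 1.82 and 1.90 in wildtype-labelled hearts. These groups overlapped, and by replicate number the KO-labelled heart was higher in 3 of 3 pairs, the direction opposite to that of the Tnni1 to Tnni3 ratio.

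**Figure D4:**
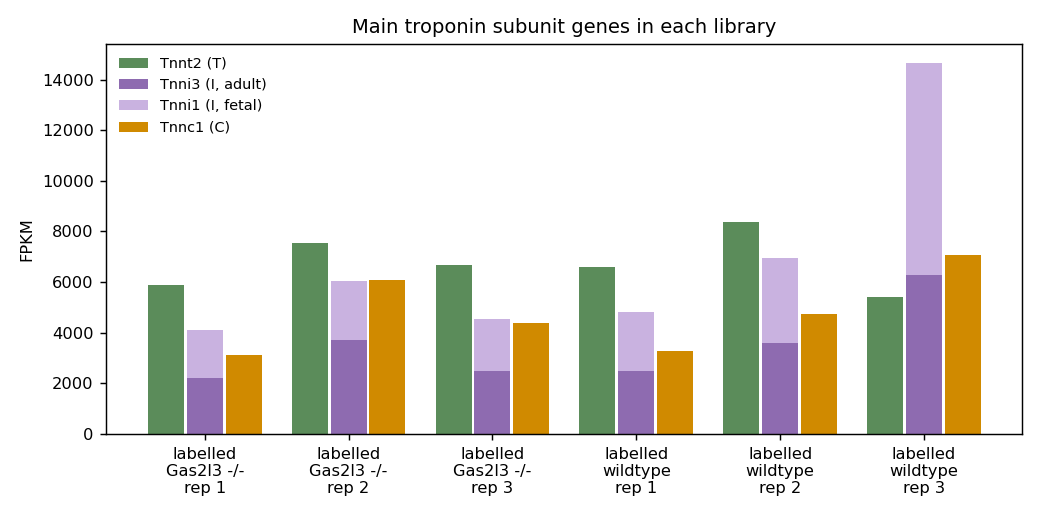
FPKM (y axis, from 0) of the main troponin T, I and C genes in each library, with Tnni1 stacked on Tnni3; libraries labelled Gas2l3 -/- are on the left and wildtype on the right. In wildtype-labelled replicate 3 the stacked troponin I exceeds the other subunits, at a ratio of 2.70 to troponin T, while in the other 5 libraries that ratio is 0.677 to 0.824.

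Across the 6 libraries, log2 levels of Tnni1 and Tnni3 correlated at 0.93, of Tnni3 and Tnnc1 at 0.91 and of Tnni1 and Tnnc1 at 0.73 (Pearson, n = 6 libraries that share depth and GC trends, given as description). Tnni1 correlated with Tnnt2 at -0.36 and with Tnnt1 at -0.77. Troponin I and T genes lie in pairs along the genome. Tnni1 and Tnnt2 are 25.4 kb apart on chromosome 1, Tnnt1 and Tnni3 are 1.92 kb apart on chromosome 7, and Tnni2 and Tnnt3 are 54.4 kb apart on chromosome 7. Levels within these pairs correlated at -0.36, -0.73 and 0.70 in that order. Of 39 other genes within 100 kb, a window chosen after the data were seen, 28 were tested, 19 had a lower mean in KO-labelled hearts (median log2 fold change -0.17) and 0 were called by limma.

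The genes whose profile was most like that of Tnni1 among 8297 ranked genes were Zfp511 (Pearson r = 0.999), Tbc1d22b (0.998), Usp21 (0.997), Strn4 (0.996) and Puf60 (0.996), over 6 libraries. The least alike were Galnt1, Gosr1 and Copb2 (each -0.997). Zfp511 was at 10.3, 12.2 and 11.1 FPKM in KO-labelled and 11.9, 14.7 and 29.1 FPKM in wildtype-labelled hearts, so like Tnni1 it was set apart by wildtype-labelled replicate 3. The log2 Tnni1 to Tnni3 ratio was most alike in Ints9 (0.998), Pygm (0.997), Trip10 (0.986), Smarcc1 (0.985) and Anxa6 (0.985), and least in Tmco1 (-0.995), Kcne3 (-0.994) and Farsb (-0.989). Pygm, the muscle glycogen phosphorylase, was at 161, 121 and 159 FPKM in KO-labelled and 171, 174 and 262 FPKM in wildtype-labelled hearts. Tnni3 was most like Mzt2, Pxmp2 and Tcap (0.997 to 0.999). Tcap, the telethonin of the Z disc, was at 96.0, 222 and 113 FPKM in KO-labelled and 117, 231 and 478 FPKM in wildtype-labelled hearts. For the other members the highest were Kctd5, Copz1 and Fam58b with Tnnc1, Cep19, Dnajc9 and Gmnn with Tnnt2, Rsad1, Sh2d4a and Dcun1d4 with Tnnt1, Ddc, Dnase1l1 and Emg1 with Tnni2, and Spsb1, Snrnp40 and Clybl with Tnnt3.

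Other genes of the thin filament were compared as a list of 16, of which 14 were tested. Means were lower in KO-labelled hearts for 9 and higher for 5, none called by limma, with a median log2 fold change of -0.13. Tpm4, a tropomyosin, was at 191, 207 and 194 FPKM in KO-labelled hearts, against 159, 156 and 85.5 FPKM in wildtype-labelled hearts, the one member whose groups did not overlap (5.02% of all tested genes were higher without overlap). Tmod4, which caps filament ends, was at 1.13 ± 0.240 FPKM in KO-labelled and 0.730 ± 0.511 FPKM in wildtype-labelled hearts (SD, n = 3 each). Cfl2, the muscle cofilin, was at 146 ± 20.8 FPKM in KO-labelled and 120 ± 49.0 FPKM in wildtype-labelled hearts.

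Other genes of the fetal and adult heart programmes were set beside the Tnni1 to Tnni3 ratio. Of 13 tested fetal genes 8 had lower and 5 higher means in KO-labelled hearts (median -0.015). The natriuretic peptide genes were the highest of them: Nppa was at 6523, 4581 and 6005 FPKM in KO-labelled hearts, against 1031, 2273 and 2408 FPKM in wildtype-labelled hearts. Nppb was at 1068, 2856 and 1423 FPKM in KO-labelled and 396, 942 and 1138 FPKM in wildtype-labelled hearts, which overlapped. Myh7, the fetal ventricular myosin of the mouse, was at 1069 ± 391 FPKM in KO-labelled and 1594 ± 653 FPKM in wildtype-labelled hearts (SD, n = 3 each). Of 18 tested adult genes 12 had lower and 6 higher means (median -0.35). Casq2, the calcium store protein of the cardiac reticulum, was at 778, 982 and 795 FPKM in KO-labelled hearts, against 577, 393 and 291 FPKM in wildtype-labelled hearts. Ckmt2, the mitochondrial creatine kinase, was at 214, 350 and 242 FPKM in KO-labelled and 130, 108 and 213 FPKM in wildtype-labelled hearts. Myom2, the M-band protein myomesin 2, was at 99.6 ± 32.6 FPKM in KO-labelled and 64.4 ± 25.5 FPKM in wildtype-labelled hearts (SD, n = 3 each). No member of either list passed limma's adjusted p. Without wildtype-labelled replicate 3 the adult list divided evenly, 9 lower and 9 higher (median 0.048), and 4 of 13 fetal genes were lower (median 0.24). Without wildtype-labelled replicate 1 the fetal median was -0.34.

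The transcription factors and hormone pathway genes known to act on troponin genes were measured as a list of 16. All 13 tested members had lower means in KO-labelled hearts (median log2 fold change -0.37), beside 51.0% of all tested genes. Limma called 0 of them. Groups did not overlap for 4 of them, Mef2d, Tbx5, Myocd and Gata6, where 4.74% of all tested genes were lower without overlap. Mef2d was at 35.5, 31.6 and 35.2 FPKM in KO-labelled and 41.6, 39.6 and 68.7 FPKM in wildtype-labelled hearts. Tbx5 was at 10.3, 6.96 and 9.72 FPKM in KO-labelled and 11.96, 13.1 and 10.4 FPKM in wildtype-labelled hearts. Nkx2-5 was at 118, 157 and 102 FPKM in KO-labelled and 107, 204 and 489 FPKM in wildtype-labelled hearts, which overlapped. Without wildtype-labelled replicate 3 all 13 means were again lower (median -0.22). The same 4 did not overlap, where 8.70% of all tested genes were lower without overlap. Leaving out a library cannot bring separated groups into overlap, so this repeat adds no support.

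Of 9 factors that splice troponin T transcripts, 6 had lower and 3 higher means (median -0.071), led by Rbfox1 at 1.09 ± 0.303 FPKM in KO-labelled and 1.68 ± 0.637 FPKM in wildtype-labelled hearts (SD, n = 3 each). Rbm24 was at 76.6 ± 8.11 FPKM in KO-labelled and 95.9 ± 23.0 FPKM in wildtype-labelled hearts. Rbm20, the regulator of titin splicing, was at 44.7 ± 2.56 FPKM in KO-labelled and 52.2 ± 15.8 FPKM in wildtype-labelled hearts. Without wildtype-labelled replicate 3 the splicing factors had 7 of 9 means lower (median -0.28) and 3 groups lower without overlap, beside 8.70% of all tested genes. Without wildtype-labelled replicate 1 their median was 0.14. Kinases and phosphatases that act on troponin divided 5 and 5 (median -0.0051), with 1 member lower and 1 higher without overlap, beside 4.74% and 5.02% of all tested genes. Prkd1, a protein kinase D that phosphorylates cardiac troponin I, was at 2.46, 2.12 and 2.69 FPKM in KO-labelled hearts, against 3.82, 3.21 and 3.44 FPKM in wildtype-labelled hearts, the lower one. Prkcd, a protein kinase C, was the higher one, at 15.7, 14.8 and 17.3 FPKM in KO-labelled hearts, against 13.4, 13.3 and 13.3 FPKM in wildtype-labelled hearts. Prkca, another protein kinase C, was at 5.72 ± 0.942 FPKM in KO-labelled and 7.34 ± 1.33 FPKM in wildtype-labelled hearts. Prkaca, the catalytic subunit of protein kinase A, was at 155 ± 9.71 FPKM in KO-labelled and 227 ± 90.9 FPKM in wildtype-labelled hearts. None was called by limma. Without wildtype-labelled replicate 3, 9 of the 10 kinase and phosphatase means were lower (median -0.18).

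**Figure D5:**
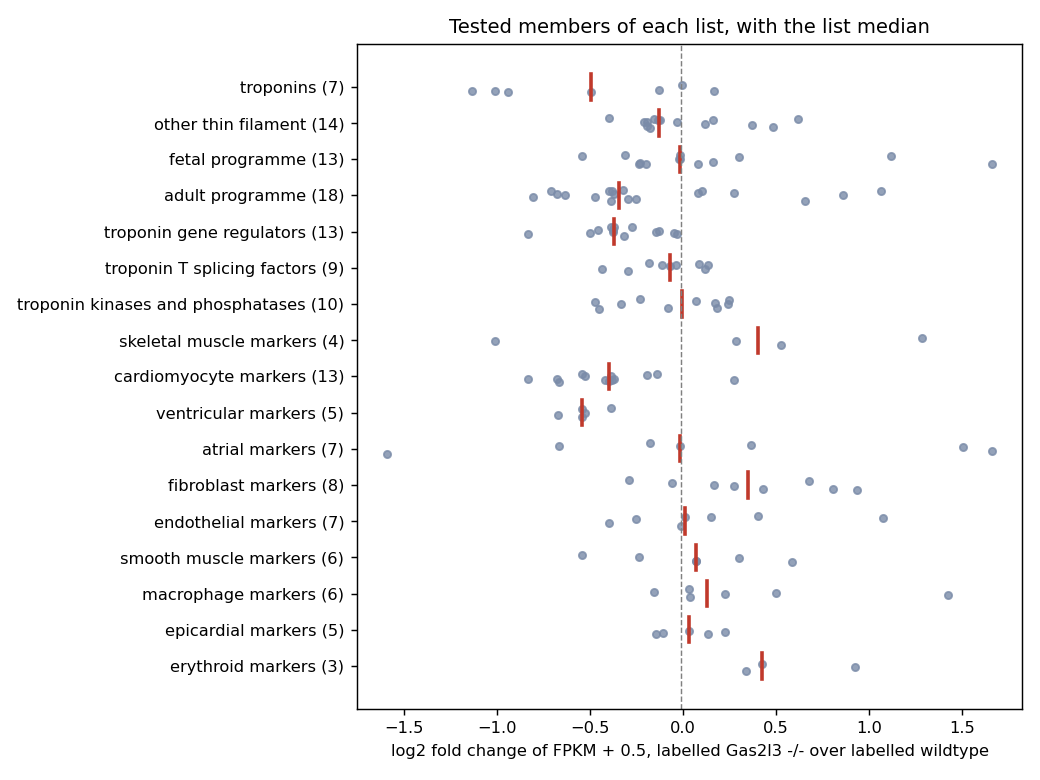
Log2 fold change of FPKM + 0.5 (x axis, positive when higher in libraries labelled Gas2l3 -/-) of each tested gene (dots) in each list, with the number tested in brackets, the list median as a red line and the median of all 12121 tested genes as a dashed line. All 13 dots of the troponin gene regulators lie below 0, with a median of -0.37.

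Markers of the cell types of the heart were compared in the same libraries. Of 13 cardiomyocyte markers 12 had lower means in KO-labelled hearts (median -0.40), and all 5 ventricular markers did (median -0.54). Of all tested genes 51.0% had a lower mean. Myl2, Myh7 and Myl3 are in both lists, and Nkx2-5 is in the cardiomyocyte and regulator lists, so these counts are not independent. Irx4, a ventricular transcription factor, was at 32.9, 37.9 and 29.9 FPKM in KO-labelled and 40.0, 46.6 and 81.7 FPKM in wildtype-labelled hearts. Its groups did not overlap, beside 4.74% of all tested genes in that direction. Hey2, a ventricular repressor, was at 29.6 ± 1.13 FPKM in KO-labelled and 45.4 ± 15.3 FPKM in wildtype-labelled hearts (SD, n = 3 each). Myh6, the adult myosin, was at 464 ± 117 FPKM in KO-labelled and 767 ± 290 FPKM in wildtype-labelled hearts. Medians were -0.014 for 7 atrial, 0.35 for 8 fibroblast, 0.012 for 7 endothelial, 0.071 for 6 smooth muscle, 0.13 for 6 macrophage, 0.031 for 5 epicardial and 0.42 for 3 erythroid markers. With 1 library left out the signs of several turned: atrial -0.22 to 0.32, endothelial -0.18 to 0.39, smooth muscle -0.14 to 0.30, epicardial -0.17 to 0.23 and erythroid -0.16 (without KO-labelled replicate 1) to 0.90. The erythroid list had 7 members, of which the globin genes Hba-a1, Hba-a2, Hbb-bt and Hbb-bs were listed at 0 in every library. Its median therefore holds no globin. With all 6 libraries, means were lower for 3 and higher for 4 endothelial markers. They were lower for 2 and higher for 6 fibroblast markers, and lower for 1 and higher for 5 macrophage markers. Groups were higher without overlap for 1 endothelial, 2 fibroblast and 2 macrophage markers, beside 5.02% of all tested genes. In groups that did not overlap, Emcn, an endothelial sialomucin, was at 111 ± 31.6 FPKM in KO-labelled and 51.3 ± 7.49 FPKM in wildtype-labelled hearts. Lum, a matrix proteoglycan, was at 59.6 ± 19.3 FPKM in KO-labelled and 30.9 ± 9.57 FPKM in wildtype-labelled hearts. Lyz2, the lysozyme of macrophages, was at 46.7 ± 22.2 FPKM in KO-labelled and 17.1 ± 7.40 FPKM in wildtype-labelled hearts, also without overlap, and the macrophage marker Adgre1 was at 2.13 ± 0.482 FPKM in KO-labelled and 1.35 ± 0.258 FPKM in wildtype-labelled hearts. The groups overlapped for the following markers. The atrial growth factor gene Bmp10 was at 50.05 ± 27.4 FPKM in KO-labelled and 16.2 ± 8.22 FPKM in wildtype-labelled hearts, and the matrix gene Postn was at 312 ± 82.4 FPKM in KO-labelled and 184 ± 72.9 FPKM in wildtype-labelled hearts. Log2 fold changes were 0.41 for Tek, 0.59 for Rgs5, -0.54 for Myh11, 0.23 for Upk1b, -0.14 for Msln and 0.42 for Alas2. Summed fibroblast markers were 1113 to 1363 FPKM in KO-labelled and 798 to 1679 FPKM in wildtype-labelled libraries. Without wildtype-labelled replicate 3 the cardiomyocyte median was -0.22, the ventricular median -0.34 with 4 of 5 means lower, the fibroblast median 0.51 and the endothelial median 0.39, with all 8 fibroblast and all 7 endothelial means higher in KO-labelled hearts. Troponin genes together took 2.88%, 3.14% and 3.22% of summed FPKM in KO-labelled hearts and 3.43%, 3.35% and 3.45% in wildtype-labelled hearts. The part of cell composition in the troponin values was not tested.

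The authors' deposited table, whose fold changes are narrowed toward 0, placed Tnni1 at -0.75 on the log2 scale (SE 0.30, adjusted p = 0.962) and Tnni3 at -0.40 (SE 0.28, adjusted p = 0.998). Values from the authors' deposited table were -0.68 for Tnnt3 (SE 0.31, adjusted p = 0.998) and -0.017 for Tnnt2. The authors' deposited table called 9 of 12243 genes (0.0735%) at the 0.05 threshold, none of them a troponin gene.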

How the data were processed

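Poly(A) RNA libraries of 6 hearts were made with the NEBNext Ultra kit, per the labels' protocols. FastQC, DESeq2 and mm10 appear in the submitters' processing notes; aligner, counter, annotation and strand setting are not given there. The authors deposited FPKM for each gene in each library. A second table, per the file headers, holds their own log2 fold changes and p-values. From the values, the deposited FPKM carry size factors, and all 94235 values above 0 gave whole reads (tolerance 0.01).

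Groups came from the labels. FPKM were tested with limma 3.58.1 (R 4.3.3, lmFit and eBayes with trend, two-sided) on log2(FPKM + 0.5), which understates changes of low genes, for genes at 1 FPKM or more in at least 3 libraries, with Benjamini-Hochberg adjustment and a threshold of 0.05. A ratio per library was compared by exact permutation. Members and gene lists were chosen with earlier results of these data known. Named list genes were the 3 of smallest p (2 for cell type lists), of which 1 is not reported here; likeness covered genes at a mean of 5 FPKM or more. Prkcd, Myocd, Gata6, Dnaaf3, Myog and the skeletal and erythroid markers listed at 0 were named outside this rule, after their values were seen. The fit was also run on simulated data drawn without GC or length trends, and its outcome is not reported here.

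Same-numbered libraries deviated together (correlations 0.472, 0.443 and 0.186, against 0.0715 or less for other pairs). These correlations are not independent, and both libraries of replicate 1 also shared a GC trend (-0.481 and -0.474). The labels do not say that the numbers pair the samples, so pairing was used only as an alternative. GC content came from GENCODE M21 (GRCm38) for 11709 genes (96.6%), and its loess trends used a span of 0.3. Promoters came from RefSeq. Alternatives were pseudocounts 0.1 and 1, filters, scalings, trends removed, the replicate block, library weights, voom on recovered reads and each library left out. Reads cover counting error only.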

Additional observations from a re-analysis of the deposited data

How the results depend on the processing

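No troponin gene was called by limma under any alternative. Over alternatives the adjusted p of Tnni1 was 0.405 or more, as was that of Tnnt3. The count over all genes was 0 in the main comparison, with 394 genes at an unadjusted p under 0.05, and 0 with the replicate block, with and without trends removed, and the pairing by replicate number changed no call of a troponin gene (Tnni1 adjusted p = 0.782 and Tnnt3 adjusted p = 0.681 with the block in limma). It was 2 with GC and length trends removed and 2 with library weights. Tnni1, Tnni2, Tnni3 and Tnnt3 kept a negative fold change throughout. Tnnt1 reversed to -0.12 with library weights and to -0.043 without wildtype-labelled replicate 3. Tnnt2 reversed to 0.17 at a common total, 0.38 after quantile normalization and 0.0082 with trends removed, with or without the block, and ran from -0.16 to 0.16 with 1 library left out. Tnnc1 reversed to 0.048 at a common total and 0.066 with trends removed, with or without the block, and to 0.11 without KO-labelled replicate 1 and 0.15 without wildtype-labelled replicate 3 (from -0.41). The common total moved the median of all genes to 0.15. The log2 Tnni1 to Tnni3 ratio difference ran from -0.53 to -0.27 with 1 library left out, that of Tnnt1 to Tnnt2 from -0.068 to 0.32, and that of Tnnc2 to Tnnc1 (pseudocount 0.5) from -1.26 to -0.013.

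List medians moved for other thin filament genes (0.046 at a common total, -0.019 after quantile normalization, -0.0043 with trends removed, -0.18 to -0.0070 with 1 library left out). Those of regulators were -0.20 at a common total, -0.22 with trends removed and -0.42 to -0.22 with 1 library left out. With 1 left out, the adult list ran from -0.54 to 0.048, kinases and phosphatases from -0.18 to 0.065 and macrophage markers from 0.064 to 0.33; at a common total the last 2 were 0.16 and 0.30. The ventricular median was -0.29 after quantile normalization. The cause of these moves was not tested. Depth limits Tnnt3, Tnni2 and Tnnc2, which rest on at most 34, 88 and 16 reads. Library weights were fitted gene by gene, and other alternatives gave the same side of the threshold. Counts without wildtype-labelled replicate 3 were added after seeing the data.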
